A study of Homo sapiens with 18 samples.

Results

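Acetylated regions at bidirectional promoters were the H3K27ac regions of HEK293T cells whose highest point lay within 1 kb of the start of a protein-coding gene that had another protein-coding gene starting on the opposite strand within 1 kb, the 2 genes being transcribed away from each other. Peaks of the 6 H3K27ac lists that shared at least 1 bp were merged into 55382 regions, and the summit of a region was that of its peak with the highest −log10 q. By this rule 742 regions (1.34%) were members. Protein-coding starts (TSSs) were the 5′ ends of the genes in GENCODE 44 on hg38. Of 861 annotated divergent pairs, 792 (92.0%) had a member summit within 1 kb of a TSS, and these pairs held 1527 genes. Each region was named by the pair with the TSS nearest to its summit, minus-strand gene first, which gave 736 named pairs because 6 pairs held 2 regions each and 53 regions lay at more than 1 pair. Other classes served for comparison. They were 9361 regions at the start of a protein-coding gene outside such pairs (single promoters) and 45279 regions with no protein-coding start within 1 kb of the summit (away from promoters).

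HEK293T cells are an immortal line derived from human embryonic kidney. Chromatin was immunoprecipitated with antibodies to H3K27ac or to CTCF from untreated cells (CTRL) and from cells given 1 mM valproic acid (VPA) for 1 day, in 3 replicates of each, all in the same line. Nothing in the labels said that the replicates were separate cultures, so the p-values measure the spread between these libraries, which may be technical. The lists held 26299 to 40992 H3K27ac peaks and 36469 to 58782 CTCF peaks on chromosomes 1 to 22, with more H3K27ac peaks in each VPA list than in any CTRL list. No read totals are in these lists. The coverage of the genome-wide background, recovered from the peak values, was 3.51 to 3.95 fragments in the H3K27ac libraries.

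In a bidirectional promoter, a nucleosome-poor stretch of DNA lies between the start sites of genes read in opposite directions, and transcription complexes assemble on both sides of it. Many such promoters are rich in CpG and drive housekeeping genes, among them genes of DNA repair, replication and mitochondria. H3K27ac is carried by the nucleosomes that flank active promoters and enhancers, and histone deacetylases, the enzymes that VPA inhibits, remove it. CTCF, a zinc finger protein, holds the bases of chromatin loops and often binds near promoters.

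The stretch between both TSSs is what the paired genes share, so it is printed here for the members whose gene pairs are textbook examples of a shared promoter and lie at most 300 bp apart, except PRKDC/MCM4, whose bases are not shown here. The bases are from the plus strand of hg38, 5′ to 3′, in lower case, from the base after the TSS of the minus-strand gene to the base before that of the plus-strand gene. Capitals mark exact matches, on either strand, to the letters of 8 factor motifs: ETS CCGGAAGT, NRF1 GCATGCGC, YY1 AAGATGGC, NFY CCAAT, SP GGGCGG, E-box CACGTG, CRE TGACGTCA and the TATA box TATAAA.
PPAT/PAICS, chr4:56435616-56435740: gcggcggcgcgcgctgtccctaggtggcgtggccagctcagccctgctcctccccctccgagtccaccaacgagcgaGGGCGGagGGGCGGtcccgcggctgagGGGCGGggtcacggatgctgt
TK1/AFMID, chr17:78187234-78187357: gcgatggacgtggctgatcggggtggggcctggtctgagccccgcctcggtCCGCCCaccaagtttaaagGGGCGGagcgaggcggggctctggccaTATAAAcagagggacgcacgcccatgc
SARS2/MRPS12, chr19:38930764-38930943: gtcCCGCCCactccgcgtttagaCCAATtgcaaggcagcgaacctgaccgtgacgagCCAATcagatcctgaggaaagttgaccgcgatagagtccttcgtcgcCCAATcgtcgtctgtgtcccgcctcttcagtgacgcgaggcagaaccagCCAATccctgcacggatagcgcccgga
COL4A4/COL4A3, chr2:227164454-227164623: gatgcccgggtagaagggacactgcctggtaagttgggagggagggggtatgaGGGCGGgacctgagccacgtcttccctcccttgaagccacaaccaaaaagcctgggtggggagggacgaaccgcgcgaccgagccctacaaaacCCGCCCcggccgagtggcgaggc
PCNA/CDS2, chr20:5126627-5126878: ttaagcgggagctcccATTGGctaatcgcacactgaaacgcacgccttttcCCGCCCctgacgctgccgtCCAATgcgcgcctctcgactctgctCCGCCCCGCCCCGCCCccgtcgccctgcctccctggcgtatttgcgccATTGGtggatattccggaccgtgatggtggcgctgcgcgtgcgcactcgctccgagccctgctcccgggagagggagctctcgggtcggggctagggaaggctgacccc
TOP3A/SMCR8, chr17:18315008-18315292: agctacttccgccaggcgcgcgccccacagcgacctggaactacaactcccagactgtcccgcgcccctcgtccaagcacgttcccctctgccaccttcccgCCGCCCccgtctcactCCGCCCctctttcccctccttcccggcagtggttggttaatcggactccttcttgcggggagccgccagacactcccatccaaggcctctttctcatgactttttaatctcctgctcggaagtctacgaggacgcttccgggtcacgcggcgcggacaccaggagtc

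PPAT and PAICS, which act in purine synthesis, shared 125 bases with 3 matches to the SP letters. The 180 bases between SARS2, the mitochondrial seryl-tRNA synthetase, and MRPS12, a mitochondrial ribosomal protein, held 4 matches to the NFY letters and 1 to the SP letters. The stretch between PCNA, the sliding clamp of DNA replication, and CDS2, an enzyme of phospholipid synthesis, held 3 NFY and 4 SP matches. Between TK1, the thymidine kinase of dividing cells, and AFMID, a kynurenine pathway enzyme, a TATAAA began 27 bp before the AFMID TSS. A match is a description of the letters, not evidence of binding.

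The TSSs of member pairs lay close together. The distance between them had quartiles of 70.0, 132 and 246.5 bp and ran from 1 to 995 bp, and 600 of the 736 named pairs (81.5%) were at most 300 bp apart. The pairs just inside the 1 kb limit were PSMB1/TBP at 995 bp and APBA3/MRPL54 at 990 bp, and the nearest outside it was TXNDC12/BTF3L4 at 1008 bp. The summit of a region was seldom between the TSSs. It lay on the side of the minus-strand gene in 365 members, on the side of the plus-strand gene in 331 and between them in 46 (6.20%). The median distance of the summit to the nearer TSS of the pair was 261 bp, against 288 bp at single promoters, which have no divergent partner TSS. The PPAT/PAICS region had its summit 994 bp from the PAICS TSS, at the edge of the rule. Over the 710 members with a peak in all 6 lists, the summits of all lists lay on the same side in 511 (72.0%), and 21 had the CTRL summits all on 1 side and the VPA summits all on another.

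H3K27ac covered nearly all of these promoters in every library. Of the annotated TSSs in divergent pairs, 86.3%, 92.7% and 92.2% lay under a peak in the CTRL lists and 87.8%, 93.4% and 93.1% in the VPA lists. The other protein-coding TSSs were covered in 47.3% to 58.2%. The difference was 36.8 ± 1.37 percentage points (SD, n = 6 lists), above 0 in 6 of 6 lists (exact two-sided sign-flip permutation test p = 0.031, the smallest that 6 lists allow; adjusted p = 0.0885 over the 17 exact tests computed). A peak was present at 712, 731 and 733 members in CTRL and at 724, 738 and 738 in VPA, that is 725.3 ± 11.6 against 733.3 ± 8.08 (SD, n = 3), and the exact two-sided permutation test gave p = 0.5 (3 against 3 libraries cannot go below 0.1). In all 6 lists a peak was found at 95.7% of members, 85.3% of single promoters and 33.2% of all regions. No member had a peak in 3 of 3 lists of a group and 0 of 3 of the other.

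The acetylated domain was wider than at single promoters. The median length covered by peaks was 2340, 2825.5 and 2786 bp in CTRL and 2669.5, 3428 and 3197.5 bp in VPA. These values exceeded those of single promoters by 541 ± 53.8 bp (SD, n = 6 lists; 501 to 647 bp, exact sign-flip permutation test p = 0.031, adjusted p = 0.0885). The shape differed too. At single promoters the peak reached a median of 1173 to 1684 bp in the direction of transcription but only 648 to 975 bp upstream. At members it reached 1065 to 1546.5 bp beyond each TSS into the gene, which was 135 ± 24.6 bp less than at single promoters in the same list (108 to 172 bp less, 6 of 6 lists, exact sign-flip permutation test p = 0.031, adjusted p = 0.0885). Seen from a TSS, the upstream reach of members was 679 ± 71.0 bp longer (p = 0.031 by the same exact test, adjusted p = 0.0885), a stretch that takes in the TSS of the partner gene. This reach is the distance between the TSSs plus the reach into the partner gene. Its excess is thus largely set by the pairing, and its p-value adds no separate result. In VPA the covered length was greater in 3 of 3 replicate numbers, by 329.5, 602.5 and 411.5 bp, but the groups, 2650.5 ± 270 and 3098 ± 389 bp, overlapped (exact permutation test p = 0.3).

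**Figure D1:**
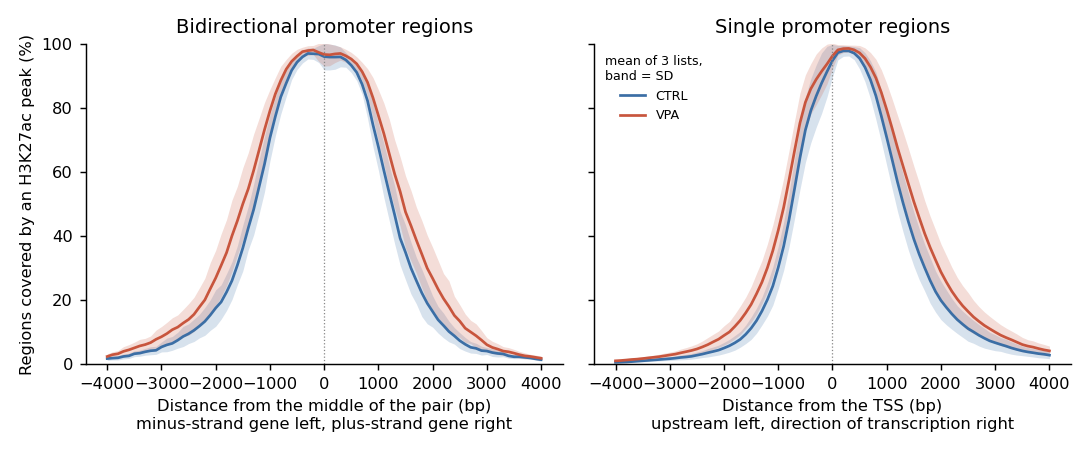
Share of regions (%) covered by an H3K27ac peak by distance (bp) from the middle of the pair at 710 bidirectional promoter regions (left) and from the TSS, in the direction of transcription, at 7983 single promoter regions (right); lines are means of 3 lists and bands their SD. At 1000 bp to the left the CTRL lists covered 70.7% of bidirectional and 30.2% of single promoter regions, and at 1000 bp to the right 67.9% and 70.8%.

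The level of the mark, given as the authors' fold enrichment of the summit over its local background, was also above that of single promoters. The median over members was 10.8, 30.2 and 27.1 in CTRL and 9.42, 23.4 and 24.1 in VPA. Replicate 1 was the lowest in both groups, and its local background at members was 13.2 and 11.1 times the genome-wide background, against 2.94 to 3.48 times in the other 4 libraries. The coverage at the summit (pileup) of members was highest in replicate 1 of each group, with medians of 136 and 103 times the genome-wide background. It was 106 and 102 times in the other CTRL libraries and 74.2 and 79.3 times in the other VPA libraries. The part of the local background in the low fold enrichments was not tested. On the log2 scale members stood 0.18 ± 0.03 above single promoters (SD, n = 6 lists; 0.13 to 0.21, higher in 6 of 6, exact sign-flip permutation test p = 0.031, adjusted p = 0.0885). The difference held in replicate 1 as well, at 0.21 in CTRL and 0.20 in VPA. Regions away from promoters had medians of 6.06 to 9.29.

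**Figure D2:**
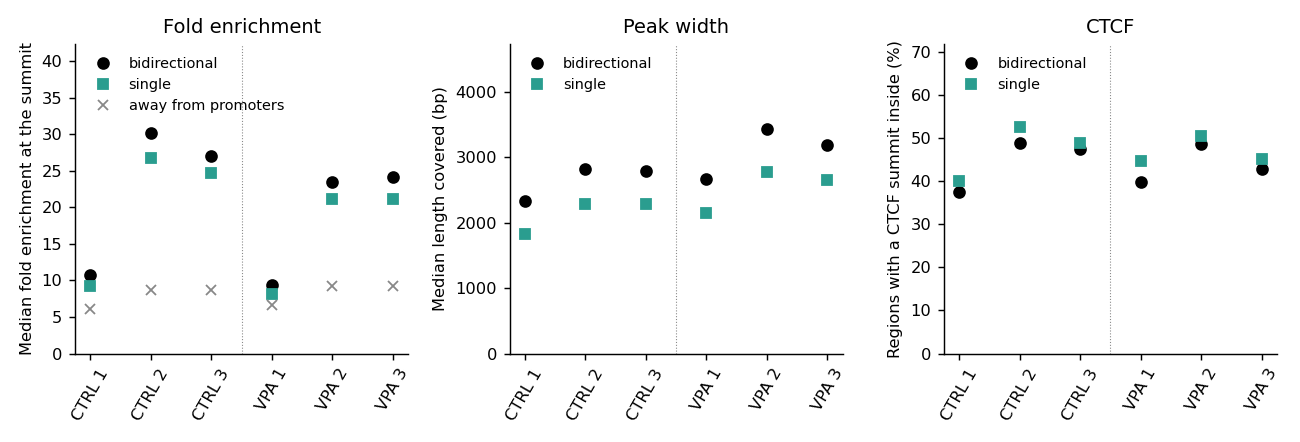
Median fold enrichment (left), median covered length in bp (middle) and percent of regions holding a CTCF summit (right) in each of the 6 lists, for bidirectional, single and, in the left panel, other regions. Bidirectional promoters lie above single promoters in all 6 lists in the first 2 panels and below them in the third, and replicate 1 has the lowest fold enrichment of each group.

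The highest −log10 q values were at ribosomal protein genes. The 5 strongest members were MED22/RPL7A, RPL12/LRSAM1, RPL35/ARPC5L, TRIM66/RPL27A and POLE/PXMP2, with mean −log10 q values of 2073, 1710, 1599.9, 1420 and 1344. RPL7A, RPL12, RPL35 and RPL27A encode proteins of the large cytosolic ribosomal subunit, and POLE is the catalytic subunit of DNA polymerase epsilon. The widest was SNX5/MGME1 on chromosome 20, at chr20:17955667-17974650, where peaks covered 17210, 17737 and 17975 bp in CTRL and 15482, 17576 and 17324 bp in VPA. ARL3/SFXN2, ZBTB4/POLR2A, H2BC11/H2AC11 and TRIM66/RPL27A followed with means of 9610, 9214, 8190 and 7930 bp. POLR2A encodes the largest subunit of RNA polymerase II.

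The comparison of VPA with CTRL asked whether the deacetylase inhibitor changed H3K27ac at these promoters. Most members had lower fold enrichment in VPA, and the change was about that of single promoters. Of the 710 members tested (a peak in all 6 lists), 537 (75.6%) had a negative log2 change, against 62.0% of the 18407 regions tested. The median log2 change was −0.26 over members, a fold of 0.834, −0.26 over single promoters, 0.01 over regions away from promoters and −0.14 over all regions tested. Within replicate numbers the median of members fell by 0.19, 0.37 and 0.17. The groups' medians overlapped, with replicate 1 lowest in both (exact permutation test p = 0.5). The change at members differed from that at single promoters by 0.01 (−0.01, −0.02 and 0.05 in replicates 1 to 3, exact permutation test p = 0.8). The sign of the members' median turned when CTRL replicate 2 (0.01) or VPA replicate 1 (0.17) was left out, and reached −0.72 without CTRL replicate 1.

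limma across all regions, with values as deposited, called 0 members higher and 0 lower at adjusted p under 0.05 (background 0% of regions in each direction), and 0 members and 161 of 18407 regions had an unadjusted p under 0.05. The 3 values of each group did not overlap in 1 member that was higher in VPA (background 4.51%) and 8 that were lower (background 1.54%). Libraries of the same replicate number deviated together. With the replicate number as a block, limma called 7 members higher (0.986%, background 5.05%) and 67 lower (9.44%, background 8.9%). The share called lower was thus close to that of all regions, and the share called higher was below it. Single promoters gave 1.30% and 11.1%, and regions away from promoters 8.42% and 7.06%. In 3 of 3 replicate numbers, 320 members (45.1%, background 34.9%) were lower and 47 (6.62%, background 17.2%) higher. After median-centring the blocked fit called 10 members higher (background 6.9%) and 40 lower (background 6.11%), and after quantile normalization 1 (background 1.68%) and 2 (background 1.22%). On the recovered summit pileup, in units of the background coverage, it called 13 higher (background 12.8%) and 515 lower (background 50.7%), and the fit without the block called 1 (background 3.94%) and 115 (background 14.2%). The numbers of calls thus depended on the scaling. The pileup had medians of 136, 106 and 102 times the background in CTRL and 103, 74.2 and 79.3 times in VPA, lower in 3 of 3 replicate numbers (log2 change −0.42, exact permutation test p = 0.2). Each library is scaled to its own background, so a loss at promoters and a gain of reads elsewhere cannot be told apart.

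The change depended on how strongly a region was acetylated. Members were divided into 4 groups of 177 or 178 by mean log2 fold enrichment over the 6 lists. In the lowest group (mean fold 3.73 to 14.7) the median log2 change was 0.01 and all 7 blocked rises occurred, beside 5 falls. In the next groups it was −0.19, −0.29 and −0.45, with 8, 16 and 38 falls and 0 rises. In the lowest range 98 of 3120 single promoters and 773 of 7021 regions away from promoters were called higher, and 138 and 263 lower. In the middle ranges 101 of 1671 and 199 of 1537 single promoters were called lower. Away from promoters these were 91 of 843 and 106 of 647. In the highest group (24.6 to 61.8) 93.8% of members had a negative change, and 38 of 178 members were called lower, against 442 of 1618 single promoters and 223 of 639 regions away from promoters in the same range. Regions of other classes with the same fold enrichment followed the same order: the medians in these 4 ranges were −0.07, −0.24, −0.37 and −0.52 at single promoters and 0.12, −0.25, −0.38 and −0.54 away from promoters. After quantile normalization, which gives all lists the same distribution of values, the members' medians in the 4 ranges were 0.02, 0.02, 0.02 and −0.01. Those of single promoters were −0.03, −0.04, −0.05 and −0.08, and those of regions away from promoters 0.07, −0.05, −0.06 and −0.10.

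**Figure D3:**
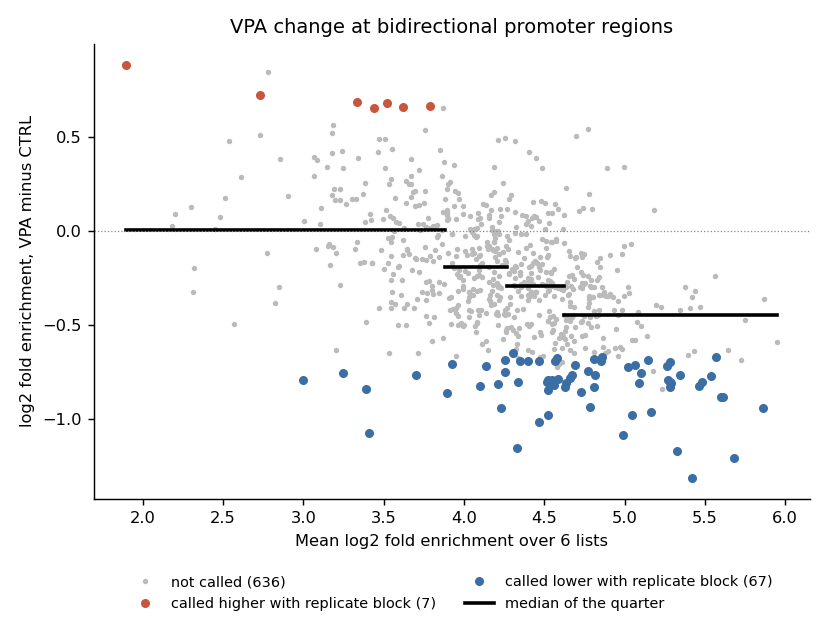
log2 fold enrichment of VPA minus CTRL (y axis) against the mean log2 fold enrichment over the 6 lists (x axis) for the 710 members tested; black lines are medians of the 4 groups by level, and coloured points were called by limma with the replicate block, 7 higher and 67 lower. The medians go from 0.01 in the lowest group to −0.45 in the highest, and the rises sit among weakly acetylated members.

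The largest of the falls called with the block was at SIL1/MATR3, where SIL1 is a co-chaperone of the endoplasmic reticulum and MATR3 a nuclear matrix RNA-binding protein. The stretches between the TSSs of the 4 largest falls are shown with the same marking.
SIL1/MATR3, chr5:139293558-139293673: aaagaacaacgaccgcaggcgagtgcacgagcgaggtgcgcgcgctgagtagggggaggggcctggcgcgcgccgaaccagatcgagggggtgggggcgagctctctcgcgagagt
RPL35/ARPC5L, chr9:124861982-124862129: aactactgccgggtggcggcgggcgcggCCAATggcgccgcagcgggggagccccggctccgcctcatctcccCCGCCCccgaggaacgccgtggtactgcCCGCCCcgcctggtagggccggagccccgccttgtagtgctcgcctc
LRRC41/UQCRH, chr1:46303617-46303697: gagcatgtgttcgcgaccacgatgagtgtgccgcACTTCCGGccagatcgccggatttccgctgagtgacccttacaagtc
TAF5L/URB2, chr1:229626123-229626246: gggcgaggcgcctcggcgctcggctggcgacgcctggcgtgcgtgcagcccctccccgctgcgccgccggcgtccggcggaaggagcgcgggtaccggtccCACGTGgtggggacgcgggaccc

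At SIL1/MATR3 the fold enrichment was 25.1, 114 and 108 in CTRL and 12.6, 43.4 and 37.0 in VPA. It was lower in VPA in each replicate number, although VPA replicates 2 and 3 stood above CTRL replicate 1. The log2 change was −1.31 ± 0.71 (SE) without the block and ± 0.21 with it (limma adjusted p = 1.00 and 0.00438). RPL35/ARPC5L, where ARPC5L is a subunit of the actin-nucleating Arp2/3 complex, had 36.6, 124 and 105 in CTRL and 16.1, 48.6 and 49.7 in VPA (log2 change −1.20, limma adjusted p = 0.00481 with the block). LRRC41/UQCRH, with UQCRH a subunit of respiratory complex III, had 25.2, 86.8 and 99.3 in CTRL and 14.2, 31.6 and 42.7 in VPA (−1.17, limma adjusted p = 0.00602 with the block). At all 3 pairs each CTRL library was above the VPA library of its number. TAF5L/URB2, RSF1/AAMDC, FAM13A/TIGD2, ACVR1/UPP2 and ATAD2B/UBXN2A fell by 1.15, 1.08, 1.07, 1.01 and 0.98 on the log2 scale. TAF5L is a subunit of histone acetyltransferase complexes, RSF1 a chromatin remodelling subunit and ACVR1 a receptor of bone morphogenetic proteins. Of the 67 falls, 40 were also called lower after median-centring and 67 on the recovered pileup, each with the block, and 54 had a mean fold enrichment above the member median. These are refits of the same peaks, in which 40 and 515 of the 710 members were called lower (backgrounds 6.11% and 50.7%).

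Among members whose groups did not overlap, VPS52/RPS18 and COG4/SF3B3 had large falls, and EIF2AK3/RPIA was the 1 such member that was higher in VPA. The bases between their TSSs are shown with the same marking.
VPS52/RPS18, chr6:33272048-33272074: atataatgatatcgcgtcacttccgct
COG4/SF3B3, chr16:70523561-70523790: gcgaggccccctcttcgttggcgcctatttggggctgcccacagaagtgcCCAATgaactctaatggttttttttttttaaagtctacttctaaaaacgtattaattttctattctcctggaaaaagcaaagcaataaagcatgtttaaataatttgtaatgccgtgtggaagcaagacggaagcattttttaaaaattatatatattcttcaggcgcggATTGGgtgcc
EIF2AK3/RPIA, chr2:88691519-88691672: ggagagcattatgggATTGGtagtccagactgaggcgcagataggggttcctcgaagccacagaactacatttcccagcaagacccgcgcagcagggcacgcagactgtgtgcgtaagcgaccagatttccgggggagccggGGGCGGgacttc

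VPS52/RPS18 had 67.0, 71.0 and 61.8 in CTRL and 32.9, 32.7 and 43.7 in VPA (log2 change −0.88, limma adjusted p = 0.0194 with the block). RPS18 is a protein of the small ribosomal subunit, and no library stood apart there, replicate 1 included. COG4/SF3B3, the latter a splicing factor subunit, had 53.0, 92.7 and 58.3 in CTRL and 23.1, 45.8 and 43.1 in VPA (−0.88, limma adjusted p = 0.0210 with the block). PURG/WRN, which holds the helicase gene of Werner syndrome, had the largest log2 change of the non-overlapping members (−0.94), with 18.3, 53.6 and 17.9 in CTRL and 8.14, 17.1 and 17.8 in VPA. Its separation rested on 17.9 against 17.8 in replicate 3. FUBP1/DNAJB4 (−0.77) and C17orf75/ZNF207 (−0.67) came after these 3. EIF2AK3, the PERK kinase of the unfolded protein response, and RPIA, of the pentose phosphate pathway, had 11.3, 10.6 and 11.9 in CTRL and 15.05, 16.7 and 17.3 in VPA. Its log2 change of 0.54 ± 0.21 (SE) was not called with the block (limma adjusted p = 0.0882).

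The 7 rises called with the block were RSPH14/RAB36, LYSMD2/TMOD2, EHHADH/MAP3K13, ACOT8/ZSWIM3, ATP6V1E1/BCL2L13, BLVRB/SPTBN4 and RNF25/STK36, with log2 changes of 0.88, 0.72, 0.69, 0.68, 0.67, 0.66 and 0.66 (limma adjusted p from 0.0218 to 0.0470). RSPH14/RAB36, a radial spoke protein gene beside a Rab GTPase gene, was weakly acetylated, with 1.56, 3.34 and 3.96 in CTRL and 2.62, 8.62 and 5.76 in VPA. EHHADH and ACOT8 encode peroxisomal enzymes, and their regions had 4.38, 8.69 and 13.1 in CTRL against 6.84, 16.0 and 19.0 in VPA, and 4.95, 11.6 and 13.1 against 9.51, 16.3 and 19.8. Replicate 1 was the lowest of its group at all 3 regions, and each VPA value was above the CTRL value of its number. All 7 had a mean fold enrichment of at most 13.8, below the member median. After median-centring with the block all 7 were still called higher, and on the recovered pileup with the block 4 were. EHHADH/MAP3K13, ATP6V1E1/BCL2L13 and BLVRB/SPTBN4 were not called on the pileup (limma adjusted p = 0.423, 0.234 and 0.0540 with the block). At EHHADH/MAP3K13 the pileup was 101, 94 and 72 fragments in CTRL and 108, 88 and 102 in VPA, lower in VPA in replicate 2. In these refits of the same peaks 10 and 13 members were called higher (backgrounds 6.9% and 12.8%). These 7 members and the 8 largest falls were chosen for naming after the fit without the block had called none.

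**Figure D4:**
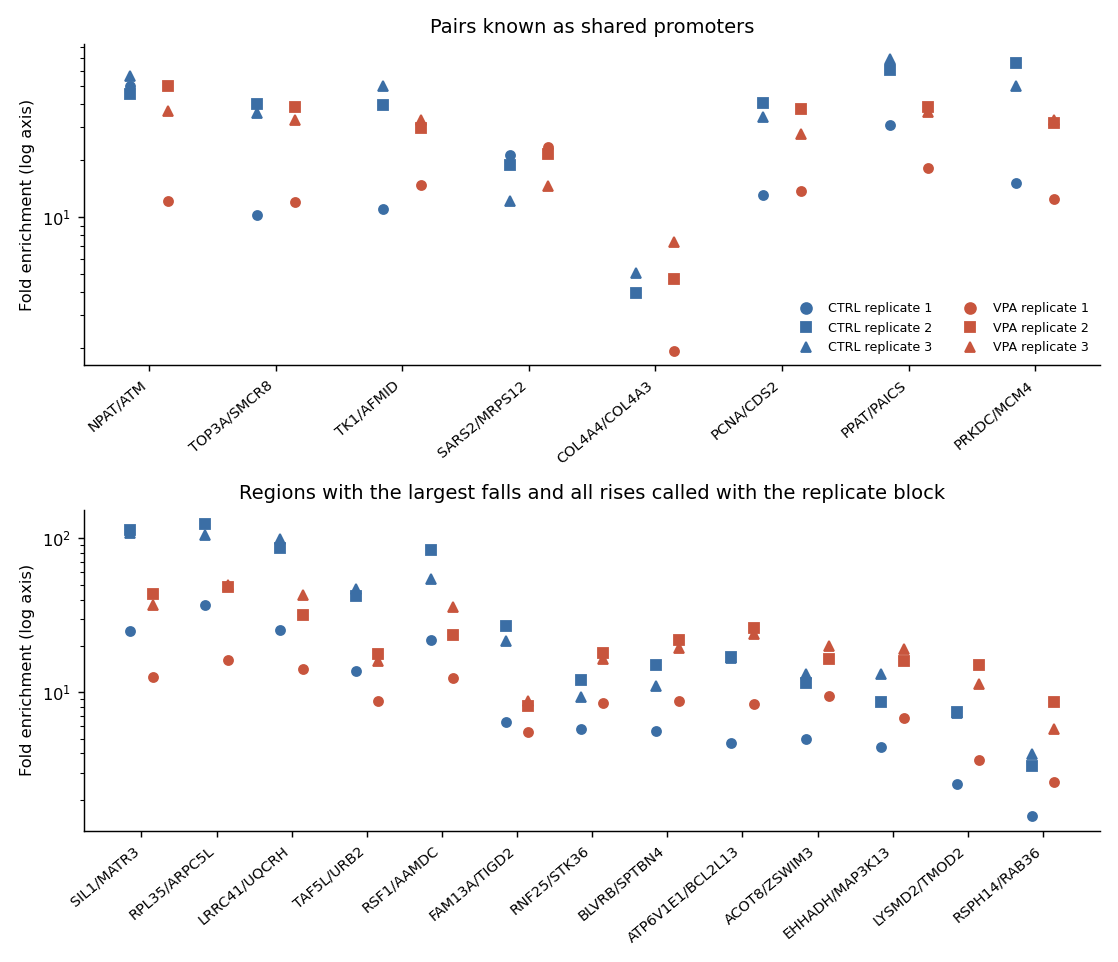
Fold enrichment (log axis) in each list at the 8 members from textbook pairs (top) and at the 6 largest falls and 7 rises called with the replicate block (bottom); colours mark the treatment and symbols the replicate number. COL4A4/COL4A3 has no point for CTRL replicate 1, and replicate 1 is lowest at most members.

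The textbook pairs had log2 changes of both signs. Of 28 pairs listed, 10 met the rule for divergent pairs and 8 were members, while 15 would be pairs if overlapping 5′ ends were allowed. PPAT/PAICS had 30.9, 60.7 and 69.6 in CTRL and 18.1, 38.6 and 36.1 in VPA. It was the 1 textbook pair whose fold enrichment was called with the block (log2 change −0.79, limma adjusted p = 0.0249). NPAT/ATM, a histone gene coactivator beside the DNA damage kinase, had 49.6, 45.1 and 56.5 in CTRL and 12.1, 50.0 and 36.6 in VPA. Its log2 change was −0.84 (limma adjusted p = 0.0788 with the block). It was −2.03 in replicate 1 and 0.15 in replicate 2, so the fold enrichments did not move alike. The pileup there was 507, 500 and 441 fragments in CTRL and 374, 363 and 343 in VPA. It was lower in each replicate number (limma adjusted p = 0.00328 with the block), in a refit that called 515 of 710 members lower. The local background was 9.24 fragments in CTRL and 29.9 in VPA in replicate 1, and 10.1 and 6.28 in replicate 2. PRKDC/MCM4, the DNA-dependent protein kinase beside a replicative helicase subunit, had 15.2, 66.2 and 49.7 in CTRL and 12.4, 31.8 and 33.0 in VPA (−0.65, limma adjusted p = 0.0617 with the block). The log2 changes of TK1/AFMID, PCNA/CDS2, TOP3A/SMCR8 and SARS2/MRPS12 were −0.19, −0.10, 0.01 and 0.21. At SARS2/MRPS12 each VPA value was above the CTRL value of its number, at 23.6, 21.6 and 14.6 against 21.2, 18.8 and 12.1. COL4A4/COL4A3, the collagen IV chains of kidney basement membrane, was weakly marked, with no peak in CTRL replicate 1, 3.94 and 5.05 in the other CTRL lists and 1.94, 4.67 and 7.36 in VPA.

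Divergent pairs held a large share of the genes of some functions. Of 144 annotated DNA replication and repair genes, 46 (31.9%) were in divergent pairs, as were 27 of 69 replication-dependent histone genes (39.1%), 25 of 103 respiratory chain genes (24.3%) and 17 of 78 mitochondrial ribosomal protein genes (21.8%), against 1659 of 19103 protein-coding genes (8.68%). Solute carriers (9 of 323, 2.79%), collagens (2 of 42, 4.76%) and ZNF genes (30 of 496, 6.05%) were in the other direction. With the block 0 members of the 13 lists examined were called higher, where 0.986% of all members and 5.05% of all regions tested were. At the members' share, lists of this size would hold few rises or none.

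Cytosolic ribosomal protein genes had the lowest median log2 change, −0.68 over 10 tested members, against −0.26 over all members, and 5 of the 10 were called lower with the block, where 9.44% of all members and 8.9% of all regions were. These were RPL35/ARPC5L, MED22/RPL7A, VPS52/RPS18, RPL9/LIAS and RPL18/SPHK2, with log2 changes of −1.20, −0.94, −0.88, −0.72 and −0.67. RPL36AL/MGAT2, whose ribosomal protein symbol the list did not take in, was also called lower (−0.84). The median fold enrichment of the list was 61.5 in CTRL and 34.9 in VPA, and the part of the level in its changes was not tested. Against the same 9.44% of members, DNA replication and repair genes had 4 of 41 called lower (median −0.33), histones 2 of 9 (−0.50), proteasome subunits 2 of 5 (−0.49), heat shock proteins and chaperonins 2 of 11 (−0.45), mitosis genes 2 of 15 (−0.32), respiratory chain genes 1 of 24 (−0.34) and ZNF genes 1 of 24 (−0.12). None was called among 16 mitochondrial ribosomal proteins (−0.19), 9 solute carriers (−0.13), 3 aminoacyl-tRNA synthetases (−0.23) and 2 tubulins (−0.12), and the 1 collagen member was not tested.

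At MED22/RPL7A, the strongest member, the fold enrichment was 34.8, 136 and 111 in CTRL and 20.7, 67.9 and 52.8 in VPA, lower in VPA in each replicate number (limma adjusted p = 0.0128 with the block). RPL12/LRSAM1 and TRIM66/RPL27A were lower in each replicate number too, with log2 changes of −0.68 and −0.47, but were not called (limma adjusted p = 0.0529 and 0.142 with the block). Among DNA replication and repair genes, LIG1/ZSWIM9, with the ligase that joins Okazaki fragments, had 15.1, 69.9 and 52.1 in CTRL and 13.5, 24.0 and 24.5 in VPA (−0.93). MRE11/ANKRD49, with the nuclease of the MRN complex, had 18.4, 51.9 and 55.0 in CTRL and 15.4, 25.6 and 23.8 in VPA (−0.83). Both were called lower with the block (limma adjusted p = 0.0272 and 0.0299), as was RAD52/ERC1 (−0.76). TPRA1/MCM2 and POLE/PXMP2 had log2 changes of −0.40 and −0.63 and were not called (limma adjusted p = 0.194 and 0.0534 with the block).

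The 2 histone members called lower were H2BC12/H2AC12 (−0.96) and H2BC11/H2AC11 (−0.72), with limma adjusted p of 0.0138 and 0.0472 with the block, and H2AC15/H2BC15 and H2BC8/H2AC8 had −0.66 and 0.01 and were not called. PSMA7/SS18L1 and PSMA1/PDE3B, with subunits of the proteasome core, fell by 0.98 and 0.81 on the log2 scale with the block, while PSMA2/MRPL32 and PSMB1/TBP had −0.11 and −0.02. DCAF16/NCAPG, with a condensin subunit, fell by 0.77, and AURKA/CSTF1, with a mitotic kinase, had −0.42 and was not called (limma adjusted p = 0.194 with the block). The chaperone members called were FUBP1/DNAJB4 and ATPSCKMT/CCT5 (−0.77 and −0.75). After median-centring with the block H2BC11/H2AC11, RPL9/LIAS, RPL18/SPHK2, FUBP1/DNAJB4, C17orf75/ZNF207 and RAD52/ERC1 were among the falls no longer called (limma adjusted p = 0.0745, 0.0684, 0.0716, 0.062, 0.0725 and 0.0549).

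CTCF peaks lay in many members, though in slightly fewer than at single promoters. The share of members that held the summit of a CTCF peak was 37.5%, 48.8% and 47.3% in CTRL and 39.8%, 48.5% and 42.7% in VPA, or 44.5 ± 6.15% against 43.7 ± 4.46% (SD, n = 3, exact permutation test p = 0.9). In the same list the share was 2.80 ± 1.18 percentage points below that of single promoters (1.58 to 4.77 points below, 6 of 6 lists, exact sign-flip permutation test p = 0.031, adjusted p = 0.0885), although the regions of members were wider. A CTCF summit was found in all 6 CTCF lists at 243 members and in none at 326. The share with CTCF in all 6 lists was 28.5% of tested members with TSSs at most 100 bp apart, 34.3% from 100 to 300 bp and 40.9% above 300 bp. The median covered length rose along these classes too, at 2749.5, 2985.8 and 3178.3 bp. Of the 250 CTCF regions tested, 51 (20.4%) had the summit between the TSSs, and the median distance of the summit to the nearest TSS of the pair was 224 bp.

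CTCF itself did not pass the test at any member. limma called 0 of the 250 regions higher and 0 lower (background 0%), 1 had an unadjusted p under 0.05, and over all 27794 CTCF regions 90 did. In simulated CTCF data the same fit recovered 0 of 100 regions changed by a log2 of 2, so changes of that size were not detectable with it. The median log2 change was 0.07, against −0.02 over all CTCF regions. The largest falls were at PATL2/B2M, CCDC163/MMACHC and CHDH/IL17RB (−1.28, −1.24 and −1.14). At PATL2/B2M, where B2M encodes the light chain of MHC class I, the CTCF fold enrichment was 3.91, 29.0 and 33.5 in CTRL and 1.86, 5.42 and 26.5 in VPA. At CHDH/IL17RB it was 15.6, 14.2 and 13.96 in CTRL and 4.01, 8.401 and 8.61 in VPA, with no overlap (log2 change −1.14 ± 0.45 (SE), limma adjusted p = 1.00). The H3K27ac of the same member was among the falls called with the block (−0.84, limma adjusted p = 0.0356). The largest rises were at IRGQ/SRRM5, KCTD19/LRRC36 and CAPN14/EHD3 (0.82, 0.70 and 0.68). Tested members with CTCF in all 6 lists had a median H3K27ac log2 change of −0.27 (n = 236) and those with CTCF in none −0.24 (n = 305).

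The windows of 300 bp centred on the middle of the pairs held some motif letters more often than other promoters, whose windows were centred on the TSS. Windows centred on the TSSs of member pairs held the ETS, NRF1, NFY and YY1 letters in 14.6%, 8.91%, 38.8% and 6.75%. At pair centres the ETS letters were found in 110 of 736 windows (14.9%), against 8.08% of single TSSs with an H3K27ac region and 5.22% of all protein-coding TSSs. The NRF1 letters were in 9.24%, against 5.20% and 3.53%, and the NFY letters in 40.8%, against 32.6% and 33.5%. The SP letters were in 73.6%, about as often as at acetylated single TSSs (74.6%), and the TATA letters in 3.94%, against 3.82% and 9.25%. E-box, YY1 and CRE letters were in 10.9%, 5.98% and 4.08%, against 8.91%, 5.54% and 3.18% of acetylated single TSSs. Motifs were searched on both strands and may overlap. The median GC content was 65.0% at pair centres, 65.7% at the TSSs of member pairs, 68.3% at acetylated single TSSs and 63.0% at all TSSs. Members whose window held the TATA letters had a median log2 change of −0.44 (n = 25), against −0.26 for those without. With and without the ETS letters the median log2 change was −0.26.

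**Figure D5:**
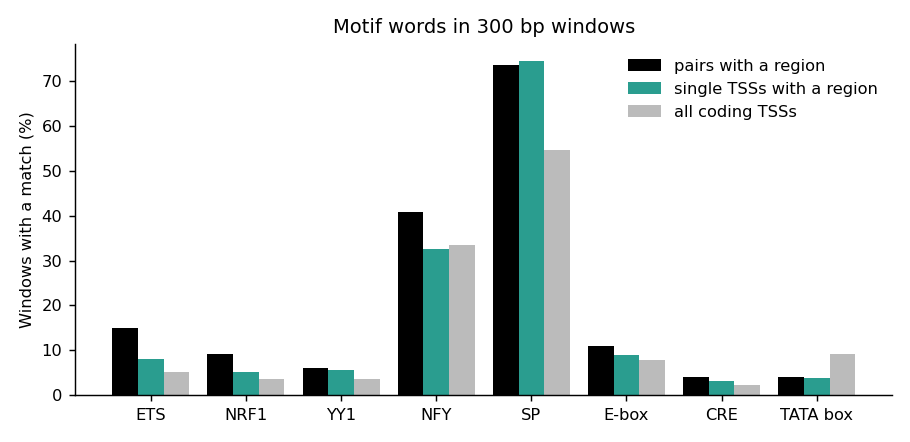
Percent of 300 bp windows with at least 1 exact match to the letters of each motif, on either strand, for pairs with a member, single TSSs with an H3K27ac region and all protein-coding TSSs. Windows are centred on the middle of the pair for pairs and on the TSS for the others. The bars for ETS, NRF1 and NFY are highest at the pairs (14.9%, 9.24% and 40.8%), and those for SP are nearly equal at pairs and acetylated single TSSs.

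The 32 members without a peak in all 6 lists were weakly marked, with mean fold enrichments of at most 7.52 where a peak was called. A fold enrichment is listed for called peaks alone, so they were not tested. TPRX1/CRX, the latter a photoreceptor transcription factor gene, had a peak in 1 of 3 CTRL and 3 of 3 VPA lists at fold enrichments of 2.66 to 3.43. TSPAN19/LRRIQ1 and the weaker of the regions at GON4L/SYT11 had a peak in 0 of 3 CTRL and 2 of 3 VPA lists, and HSPA1L/HSPA1A and PTH2/GFY in 0 and 1. The weaker region at H3C7/H2BC9 had a peak in 1 CTRL list and 0 VPA lists. Histone genes have similar copies, and the part of reads with several matches in their peaks was not tested. Of the 69 pairs with no member, 37 had neither TSS inside an H3K27ac region of any list. Among these were the olfactory receptor pair OR11A1/OR2H1, the GABA receptor pair GABRA4/GABRB1, WNT3/WNT9B and DUOX2/DUOXA2.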

How the data were processed

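The members and the gene lists were chosen with earlier results of these data known. H3K27ac and CTCF were profiled by ChIP-seq in HEK293T cells. The 12 deposited lists hold peaks that the authors called per library with MACS3 3.0.0a7 on reads aligned to hg38 with Bowtie2, per the submitters' processing notes, at q 0.05 without pooling replicates. Their columns give the authors' fold enrichment (a ratio to the local background), −log10 p-value and −log10 q-value, beside a display score that the authors' caller derived from the q-value and that was not analysed. How the inputs entered the calling is not given in the sources used here, and the 6 input samples were not used here. Read depth is unknown. The summit pileup was recovered from the authors' fold and −log10 p-value columns and came out whole within 0.05 in at least 99.997% of peaks of each list, with a lowest value of 11 fragments.

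Peaks sharing 1 bp were merged with pandas 2.3.3 and numpy 2.4.6 (Python 3.11.15). In each list a region took the fold enrichment of its peak with the highest −log10 q. Its log2 was tested without pseudocount by limma 3.58.1 (R 4.3.3) in regions with a peak in all 6 lists (18407 for H3K27ac, 27794 for CTCF), with Benjamini-Hochberg adjustment over all of them. Exact permutation tests were two-sided, over 20 assignments of 3 against 3 libraries or 64 sign flips over 6 lists. H3K27ac libraries of the same replicate number deviated together (r = 0.86, 0.59 and 0.59 over 18407 regions), so the blocked fit is given beside the results. CTRL replicate 2 with VPA replicate 3 gave r = 0.61 and CTRL replicate 3 with VPA replicate 2 gave 0.55, so the pattern mainly sets replicate 1 apart. The labels do not say what a number marks. In simulated data with 100 regions changed by a log2 of 1, the blocked H3K27ac fit recovered 86 and the fit without the block 0, and of 100 changed by a log2 of 2 they recovered 100 and 0. The blocked fit also made 9 calls among regions that were not changed. The simulated libraries of a replicate number were given the same shift, as the blocked fit assumes. The simulation therefore cannot show which fit suits the real libraries. Members were named as non-overlapping pairs with the largest changes, textbook pairs, the 5 strongest and 5 widest, the 3 largest CTCF changes in each direction, and examples of each gene list by level. Members called with the block were named after their values were seen. Some members are not reported here.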

Additional observations from a re-analysis of the deposited data

Results flagged for a closer look

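The per-list medians of fold enrichment moved to opposite sides in VPA at bidirectional promoters and at regions away from promoters. The latter had a median log2 change per region of 0.01, with 25.4% higher and 24.7% lower in 3 of 3 replicate numbers. The members' median fell by 0.19, 0.37 and 0.17 on the log2 scale in replicates 1 to 3, and that of regions away from promoters was higher in VPA by 0.15, 0.08 and 0.11. The change at members minus that at regions away from promoters was −0.35 (−0.34, −0.45 and −0.27 by replicate number, below 0 in 3 of 3). The exact permutation test of this difference over 3 against 3 libraries gave p = 0.5, and sign flips within the replicate numbers gave an exact p = 0.25, the smallest that 3 numbers allow. Members are more strongly acetylated than these regions. In the 3 upper ranges of fold enrichment, regions away from promoters had medians of −0.25, −0.38 and −0.54, as negative as the −0.19, −0.29 and −0.45 of members. In the lowest range they had 0.12 and members 0.01.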

How the results depend on the processing

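The members' median log2 change of −0.26 became −0.18 with median-centring, 0.012 with quantile normalization and −0.42 on the recovered pileup, and ranged from −0.72 to 0.17 with a library left out, also turning sign without CTRL replicate 2 (0.01). The fit without the block made 0 calls, except on the recovered pileup (1 higher and 115 lower). The fit with the replicate block called 7 members higher and 67 lower. The further blocked settings were chosen after seeing the data. They called 10 higher and 40 lower with median-centring (6.9% and 6.11% of all regions), 13 and 515 on the pileup (12.8% and 50.7%), 6 and 73 with −log10 q of at least 3 (4.86% and 9.74%), and 1 and 2 with quantile normalization (1.68% and 1.22%). With other definitions of a pair they called 7 and 119 of 1228 (TSSs of any coding transcript), 8 and 103 of 1092 (overlapping 5′ ends included) and 6 and 58 of 614 (limits of 500 bp). These were 0.570%, 0.733% and 0.977% higher (background 5.05%) and 9.69%, 9.43% and 9.45% lower (background 8.9%). Leaving out a replicate number gave 0 to 5 higher and 8 to 30 lower, with 8 lower without replicate 3, 29 without replicate 1 and 30 without replicate 2. The causes were not tested.

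The excess over single promoters was 0.17 to 0.18 in log2 fold enrichment and 520.1 to 549.3 bp in length with a list left out, where 5 lists cannot go below an exact permutation p of 0.0625. The change in the share of members with a CTCF summit (−0.85 percentage points) ranged from −4.38 to 1.28 with a library left out, and was positive on leaving out CTRL replicate 2 or 3 (0.54 for the latter) or VPA replicate 1 (1.10). The change at members minus that at single promoters (0.01) was −0.022 with the TSSs of any coding transcript and −0.018 on the pileup, and −0.013 to 0.027 with a library left out. CTCF libraries of the same number deviated together in replicates 1 and 3 but not in replicate 2 (r = 0.34, −0.05 and 0.48 over regions). With the replicate block CTCF again gave 0 calls, with an unadjusted p under 0.05 in 5 of 250 regions. The other CTCF settings gave 0 calls as well, in a fit that recovered 0 of 100 simulated CTCF changes at a log2 of 1 or 2 without the block, and 1 and 30 of 100 with it.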
